A study of Mus musculus with 2 samples.

Results

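The cells described here are the barcodes of the repopulating brain that carried the most RNA of 9 homeostatic microglia genes, 83 of 553 retained barcodes in 1 library and of 1194 barcodes in the series. Each barcode of the Repop D5 library with at least 500 genes and under 10% of its UMIs from mt- genes was scored by the summed share of its UMIs from P2ry12, P2ry13, Tmem119, Cx3cr1, Sall1, Siglech, Gpr34, Fcrls and Selplg, and the highest 15% were taken as members. A UMI (unique molecular identifier) stands for 1 captured RNA molecule, and mt- genes are those of the mitochondrial genome. Members were therefore chosen on measured counts, the choice always yields a highest 15%, and the 9 genes themselves are given below as a description.

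Adult C57BL/6J brains were dissociated with papain and cleared over Percoll, and live cells (7-AAD negative) with the surface proteins CD11b and CD45, which microglia share with other myeloid cells, were sorted for single-cell RNA sequencing. In the Repop D5 group, 6 mice ate PLX5622, which blocks the receptor Csf1r, during 14 days and were returned to control diet during the last 5 days. In the CD group, 4 mice ate control diet over all 19 days. Each group is 1 library of pooled animals, so there is no replicate check of any difference and no p-value is given, and cells of 1 library are not replicates. Ratios carry exact 95% intervals that cover counting error only. Intervals of barcode shares cover only the draw of barcodes within 1 library and are no test between sets. No difference between Repop D5 and CD can be told apart from a difference between these libraries.

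Microglia are the resident macrophages of the brain and need signalling through Csf1r to survive. When an inhibitor of this receptor is withdrawn, the cells that remain divide and refill the tissue. In the adult brain microglia carry a homeostatic gene set of purine receptors, lectins and the transcription factor Sall1, which depends on TGF-beta signals, and this set is known to be reduced in activated and in newly formed cells.

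The scores of the members ran from 0.786% to 1.87% with a median of 0.885%, against a median of 0.515% in the other 470 Repop D5 barcodes and of 1.91% in the 609 CD barcodes. The lowest member (0.786%) and the highest barcode outside (0.785%) were next to each other on a continuous range, with 16 members and 18 other barcodes within 5% of that limit. Of the CD barcodes, 550 (90.3%) reached the score of the lowest member. Outside the clusters led by markers of other cell types, described below, 417 of 426 CD barcodes (97.9%) reached it, with a median of 2.05%. Conversely, 1 member reached the lower quartile of CD (1.56%) and 0 reached the CD median. So the members are the upper end of the repopulating cells, and nearly all of them lay below the bulk of the control cells.

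**Figure D1:**
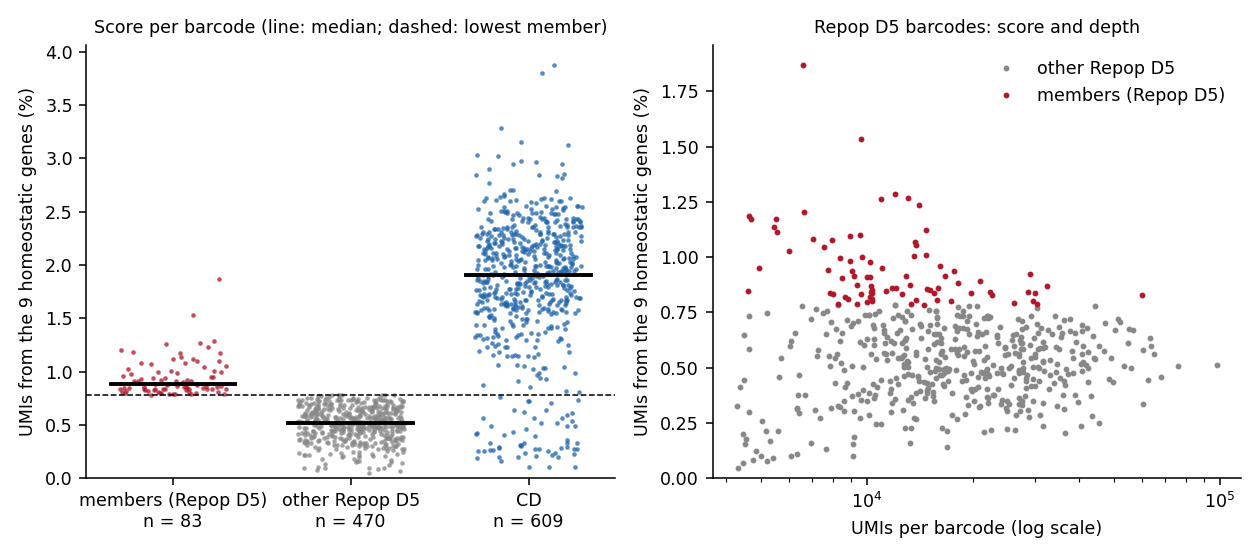
Score per barcode (percent of UMIs from the 9 genes) in the members, the other Repop D5 barcodes and CD, with the median as a line and the lowest member as a dashed line (left), and score against UMIs per barcode on a log axis in Repop D5 (right). The member median of 0.885% lies between 0.515% in the other Repop D5 barcodes and 1.91% in CD, and the barcodes with the highest scores are among the shallower ones.

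Members were shallower than the other Repop D5 barcodes and deeper than CD. Their median was 10354 UMIs and 2984 genes per barcode, against 18016.5 UMIs and 3790.5 genes in the other Repop D5 barcodes and 5982 UMIs and 2147 genes in CD. Summed over barcodes the sets held 1110666, 9927255 and 6055886 UMIs, so that 3 counts, used here as the floor, came to 2.70 CPM (UMIs of a gene scaled to the total of the set) in the members. A member's score rested on a median of 104 UMIs of the 9 genes, with a range of 39 to 499. Thinned to 3000 UMIs each, members had a median of 1313 genes, the other Repop D5 barcodes 1297 and CD 1422.5. The median mt- share was 4.97% in members and 4.74% in the others, and 2.00% in CD. Because members were shallower, the choice was also made within 5 depth classes, where 60 of the 83 members were the same barcodes and the median depth was 15772 UMIs in the chosen against 16298 in the rest. Values from this choice stand beside the results they change.

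Clustering of both libraries together placed members in several clusters. Of 83 members, 24 lay in cluster 1, 22 in cluster 9, 16 in cluster 4, 8 in cluster 5, 7 in cluster 12 and 5 in cluster 10. Among clusters with more than 1 retained Repop D5 barcode, the member share was highest in cluster 9, led by Pvrl2, Hacd4 and Gdpd3. There 22 of 65 barcodes (33.8%, exact interval 22.6% to 46.6%) were members. The share was 16.7% in cluster 1, led by Fam19a1, Ch25h and Ass1, and 8.33% in cluster 5, which was led by mitotic genes such as Nusap1 and Cenpf. A single member lay in cluster 3, which otherwise held 107 CD barcodes. The clusters led by monocyte and by neutrophil markers held 49 of the other Repop D5 barcodes and 0 members. Scrublet, a doublet caller, marked 0 members and 12 of the others. The libraries shared 1 barcode sequence, which was not a member.

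The markers fixed for microglia and for other cell types were read in the same sets. All 12 microglia markers were found in the members, and summed they reached 21400 CPM, against 12332 CPM in the other Repop D5 barcodes and 30489 CPM in CD. This list includes the 9 genes of the choice, which set its order. Its markers Sparc and Olfml3, which did not enter the choice, were higher in members (3055 and 2666 CPM) than in CD (2810 and 1653 CPM). Markers of border macrophages, the macrophages of the brain's outer surfaces, summed to 51.3 CPM in members, 126 CPM in the others and 1044 CPM in CD, and Clec4n, Cd163, Lyve1 and Cd209f were at 0 in members. Monocyte markers summed to 146, 347 and 358 CPM and neutrophil markers to 779, 2263 and 13208 CPM in the same order. Between members, summed neutrophil markers ran from 183 to 17139 CPM. All 10 T and NK cell markers in the files and all 5 of fibroblasts were at 0 in the members. The remaining lists, for blood and brain cells, summed to between 0.900 CPM (erythroid) and 679 CPM (endothelial) in members, and the endothelial list to 544 CPM in the others and 643 CPM in CD. The part of other cell types in the results below was not tested beyond the values without their clusters.

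Each of the 9 chosen genes was higher in the members than in the other Repop D5 barcodes, which the rule makes likely, and lower in members than in CD. P2ry12, the ADP receptor through which microglia steer their processes, was at 1083 CPM in members, 429 CPM in the others and 2988 CPM in CD. Per barcode it ran from 320 to 4562 CPM in members with a median of 1081 CPM, from 0 to 1725 CPM with a median of 381 CPM in the others, and had a median of 3068 CPM in CD, so the ranges overlapped. Siglech, a sialic acid binding lectin, stood at 1089 CPM in members, 533 CPM in the others and 1180 CPM in CD, the smallest gap between members and CD among the 9. That gap (1.08-fold lower in members) turned to 1.11-fold higher under trimmed-mean scaling. Sall1, a transcription factor that marks microglia identity, showed the widest gap to CD, at 75.6 CPM in members, 50.2 CPM in the others and 299 CPM in CD. Cx3cr1, the fractalkine receptor, was at 1830, 1383 and 5052 CPM.

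The make-up of the score also differed. P2ry12 made 11.8% of the UMIs of the 9 genes in members, 8.26% in the other Repop D5 barcodes and 15.8% in CD. Cx3cr1 made 20.0%, 26.6% and 26.7% of them. Siglech made 11.9% in members and 6.24% in CD.

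**Figure D2:**
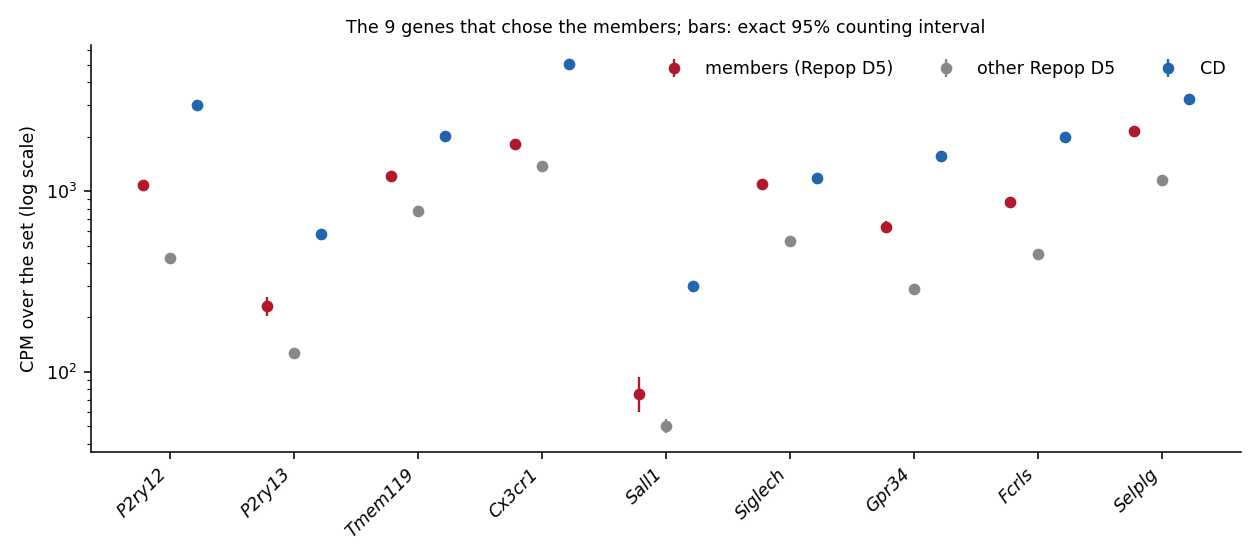
CPM on a log axis of the 9 genes that chose the members, summed over members, other Repop D5 barcodes and CD, with exact 95% counting intervals. Siglech has the smallest distance between members (1089 CPM) and CD (1180 CPM), and Sall1 the largest (75.6 and 299 CPM).

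To read each of the 9 genes apart from its own use in the choice, members were rechosen with the other 8 genes. Held out in this way, P2ry12 was 2.29-fold higher in the rechosen members than in the remaining Repop D5 barcodes (interval 2.14 to 2.44). Gpr34, a receptor for lysophosphatidylserine, was 2.01-fold higher and Siglech 1.85-fold. P2ry13, a second ADP receptor, was 1.74-fold higher, Selplg, the P-selectin ligand, 1.65-fold, Sall1 1.46-fold (1.14 to 1.84), Tmem119 1.42-fold and Fcrls 1.36-fold. Cx3cr1 had the smallest value, 1.15-fold (1.09 to 1.21). It came to 1.04-fold (0.983 to 1.09) when the score was taken on barcodes thinned to 3000 UMIs. In the 6 ways of choosing that were run, the held-out ratio of each of the 9 genes was above 1, and the order from P2ry12 and Gpr34 down to Cx3cr1 describes 1 library.

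Outside the 9 genes, few genes differed in size between members and the other Repop D5 barcodes. Of 2749 genes at 50 CPM in either set, 13 (0.473%) were at least 2-fold higher in members with an interval clear of 1, and 19 (0.691%) at least 2-fold lower. For many of them the direction is partly set by this minimum. Serpine2, Rtn4rl1, Smad7, Eva1b, Pnpla7, Nav2, Ctso and Ltf reached 50 CPM in members only. Among the lower genes, Wfdc21, Plac8, Lilrb4a, Camp, Pbk and Mcm7, for example, reached it in the others only. The highest ratio was that of Serpine2, a secreted inhibitor of serine proteases (chromosome 1, 79794197 to 79861180, minus strand). It was at 71.1 CPM in members, 16.3 CPM in the others and 523 CPM in CD, a 4.36-fold difference within Repop D5 (3.29 to 5.74). Serpine2 RNA was found in 36 of 83 members and in 93 of 470 others, and 14 of its 79 member counts came from 1 barcode. Without the 2 members of highest score the ratio was 3.53.

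Slc2a5, the fructose transporter found on microglia (chromosome 4, 150119283 to 150144169, plus strand), was at 187 CPM in members and 78.4 CPM in the others, 2.39-fold higher (2.04 to 2.79), with 295 CPM in CD. Sparc, a secreted protein of the extracellular matrix (chromosome 11, 55394500 to 55423183, minus strand), was the most abundant gene of the group, at 3055 CPM in members, 1455 CPM in the others and 2810 CPM in CD. Every member carried Sparc RNA, from 1016 to 8628 CPM, with medians of 2907 CPM in members, 1347 CPM in the others and 2767 CPM in CD. For Sparc, members were thus at the level of the whole CD set, in which 183 of 609 barcodes lay in clusters led by other cell types. Serpine2 stayed 7.35-fold below CD. The lysosomal protease gene Ctsl (chromosome 13, 64359337 to 64370890, minus strand) was at 476, 224 and 972 CPM, 2.12-fold higher in members than in the others (1.93 to 2.34).

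Other genes named by the rule were Rtn4rl1, a member of the Nogo receptor family, at 55.8 against 23.4 CPM (2.39-fold), and Nav2, which acts on the cytoskeleton, at 56.7 against 26.9 CPM (2.11-fold). Pmp22, a membrane protein known from myelin, was 2.00-fold higher and Ltc4s, which makes leukotriene C4, 1.97-fold. Pnpla7, a lysophospholipase, was 2.15-fold higher and the protease gene Ctso 2.08-fold. Eva1b was 2.19-fold higher and the kinase gene Snrk 1.97-fold. Ltc4s, Snrk and Adap2os fall just short of 2-fold and are not among the 13. Adap2os (1.98-fold) is an antisense gene, and its reads cannot be told apart from those of its partner where strand was not used in counting, which is not given in the sources used here. Ltf, a granule protein gene of neutrophils, was also 2.11-fold higher, but 59 of its 70 member counts came from 1 barcode, and without that barcode the ratio was 0.333.

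These counts moved with the way members were chosen. Within depth classes 4 genes were at least 2-fold higher, all of them among the 13: Serpine2 (3.26-fold), Rtn4rl1 (2.27-fold), Slc2a5 (2.16-fold) and Nav2 (2.11-fold). Within classes of equal cycle RNA 5 were, again all among the 13. With members chosen on a random split of the UMIs and values taken from the rest, 15 genes were higher, of which 5 were among the 13, and Pnpla7 had a ratio of 1.19. With the score taken on thinned barcodes 6 were higher, 4 of them among the 13.

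**Figure D3:**
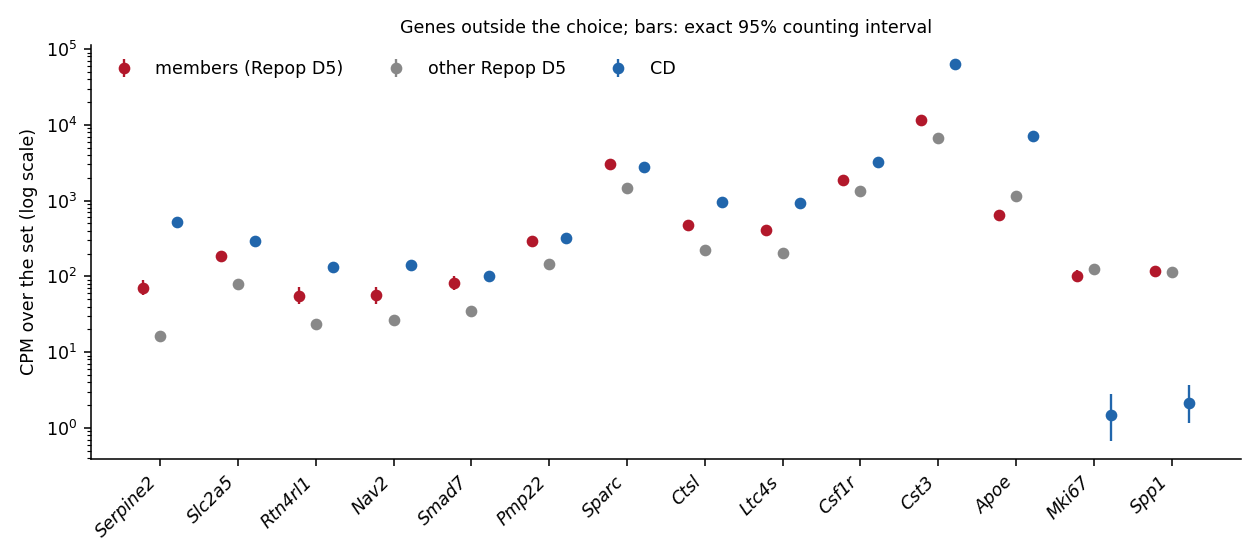
CPM on a log axis of 14 genes outside the choice in members, other Repop D5 barcodes and CD, with exact 95% counting intervals. Sparc in members (3055 CPM) is at the level of CD (2810 CPM), whereas Serpine2 (71.1 against 523 CPM) and Cst3 (11544 against 64500 CPM) are between the other Repop D5 barcodes and CD, and Mki67 and Spp1 are far above CD in both Repop D5 sets.

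The list of other homeostatic surface and secreted genes held 37 measured genes, meaning genes at 10 CPM in either set. Of these 12 were higher in members at the list threshold (1.5-fold with an interval clear of 1) and 0 lower, beside 6.19% higher and 4.49% lower among all 7525 genes. The median difference on the log2(CPM + 1) scale was 0.49, against 0.02 over all genes. Of the 12, Crybb1 and Adgrg1 reached 10 CPM in members only. Cst3, the cystatin C protease inhibitor, was at 11544 CPM in members and 6647 CPM in the others. Olfml3, a secreted microglia protein, was at 2666 CPM in members and 1714 CPM in the others, with 1653 CPM in CD. Trem2, a lipid receptor of microglia, was at 971, 635 and 2643 CPM. Csf1r, the receptor that PLX5622 blocks, was at 1847 CPM in members, 1330 CPM in the others and 3259 CPM in CD, a 1.39-fold difference within Repop D5 that was under the list threshold. Per barcode Csf1r ran from 641 to 3762 CPM in members and from 0 to 3725 CPM in the others. The complement genes C1qa and C1qb were 1.40-fold and 1.37-fold higher, also under it.

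Most transcription factors of microglia stayed within the list threshold between the Repop D5 sets. Of 23 measured, 4 were higher in members and 0 lower, with a median of 0.26 on the log2 scale. Over all 7525 genes 6.19% were higher and 4.49% lower, with a median of 0.02. The 4 were Sall3 (1.59-fold), Foxp1 (1.61-fold), Mef2d (1.65-fold) and Ets1 (1.93-fold, at 19.8 against 10.3 CPM). Spi1, which encodes the myeloid factor PU.1, was at 404 and 370 CPM, and Mef2c at 426 and 316 CPM. Within depth classes 2 factors passed the threshold and within cycle classes 1 did.

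In the TGF-beta pathway 3 of 20 measured genes were higher in members and 0 lower, with a median of 0.16. Under the same choice 6.19% of all genes were higher and 4.49% lower. Smad7, an inhibitor of the pathway that its signals induce, was at 81.0 CPM in members, 34.9 CPM in the others and 99.9 CPM in CD. The co-receptor gene Eng was at 34.2, 18.2 and 73.8 CPM, and the receptor gene Acvrl1 at 54.9, 34.3 and 28.7 CPM. Tgfbr1, the type I receptor, was 1.43-fold higher in members (475 against 331 CPM) and the ligand gene Tgfb1 was at 370 against 296 CPM, both under the threshold. Within cycle classes 1 of the 20 passed it.

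A list of 16 genes that are abundant in CD and nearly absent from repopulating cells came from earlier results of these same libraries and is no independent evidence. Of the 16, 6 reached 10 CPM in members or the others, 4 of them in members only, so their direction is partly set by that minimum and is not counted here. Besides Serpine2 they were Crybb1 (31.5 against 9.37 CPM, 603 CPM in CD), Ecscr (47.7 against 14.3 CPM, 393 CPM in CD), Slc1a3, a glutamate transporter (11.7 against 3.42 CPM), the iron exporter gene Slc40a1 (17.1 against 8.06 CPM) and the adhesion receptor gene Adgrg1 (16.2 against 7.96 CPM). Per barcode, the 16 genes summed to a median of 193 CPM in members (0 to 2169 CPM), 58.7 CPM in the others (0 to 999.6 CPM) and 3005 CPM in CD. In 12 of 83 members and 163 of 470 others they had no UMI, and the members were shallower. Summed over all 16 genes, with no minimum, the median was thus higher in members than in the other repopulating cells and far lower than in CD.

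Of 40 lysosome genes measured, 10 were higher in members, 0 lower and 30 neither, with a median of 0.45. They included the cathepsin genes Ctsd (6294 against 3529 CPM), Ctsb (1483 against 986 CPM), Ctsf (138 against 73.9 CPM) and Ctsh (1044 against 675 CPM), the legumain gene Lgmn (4886 against 3125 CPM) and the lysosomal membrane protein gene Laptm5 (1989 against 1257 CPM). For Lgmn and Ctsh the member level was above that of CD (3526 and 824 CPM). The count was 3 within depth classes and 4 within cycle classes, with medians of 0.34 and 0.33. Among all genes 6.19% were higher under the main choice, and the share under these 2 choices is not given here.

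Innate receptors and clearance genes gave smaller counts, beside 6.19% higher and 4.49% lower among all genes under the main choice. Of 17 Toll-like receptor genes and partners, 3 were higher and 0 lower: Ly86 (2489 against 1564 CPM), the receptor gene Cd180, whose protein binds that of Ly86 (213 against 129 CPM), and Unc93b1, a chaperone of the endosomal receptors (789 against 517 CPM). Within depth classes 1 of 16 was. Of 23 phagocytic and lipid receptor genes, 3 were higher, namely Trem2, the bridging ligand gene Gas6 (122 against 67.2 CPM) and the inhibitory Fc receptor gene Fcgr2b (214 against 117 CPM). Lower in members were Mrc1, Msr1 and Apoe. Purinergic receptors and enzymes outside the choice had 0 of 9 past the threshold in either direction, with a median of 0.50, and P2ry6, the UDP receptor linked to phagocytosis, was at 333 against 225 CPM (1.48-fold).

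Antigen presentation genes mostly stayed within these thresholds, as did most of all genes (6.19% higher and 4.49% lower). For MHC class I, 0 of 13 genes passed in either direction, with a median of 0.30, and the light chain gene B2m was at 4065 CPM in members and 2863 CPM in the others. For MHC class II, 1 of 8 was higher and 2 lower, and 2 were higher and 0 lower without the clusters led by other cell types. Cd74, the invariant chain, was at 215 CPM in members and 318 CPM in the others, and 88 of its 239 member counts came from 1 barcode. Without the barcodes of clusters led by other cell types, Cd74 was 1.34-fold higher in the members taken anew.

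The 15 lowest ratios included genes of neutrophils and monocytes. The lowest was that of Wfdc21, at 7.20 CPM in members and 54.9 CPM in the others (7.62-fold lower, 3.84 to 17.7), followed by the monocyte gene Plac8 at 15.3 against 78.2 CPM. S100a8 and S100a9, which encode the calprotectin subunits of neutrophils, were at 301 against 1048 CPM and 259 against 770 CPM. The granule protein genes Camp and Ngp and the secreted Retnlg were 3.39-fold, 2.73-fold and 2.36-fold lower in members. The calcium-binding protein genes S100a6 and S100a11 were 3.10-fold and 2.75-fold lower. These genes were concentrated in the bin of 94 barcodes with the lowest scores, 35 of which lay in clusters led by monocyte or neutrophil markers: S100a8 was at 4440 CPM there and between 301 and 636 CPM in the other bins. Without such clusters 13 genes were lower, 9 of them among the 19, and the ratios of S100a8, Camp, Plac8 and Ngp were 0.78, 0.89, 0.89 and 1.24.

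Some genes were lower without those clusters too. Lilrb4a, an inhibitory receptor of myeloid cells with a near-identical neighbour that makes its counts uncertain, was at 15.3 CPM in members and 61.7 CPM in the others (4.03-fold lower), with a ratio of 0.26 after removal of the clusters. Ass1, the argininosuccinate synthase of arginine metabolism, was at 43.2 against 101 CPM (2.33-fold lower). Within depth classes, however, the ratios of Lilrb4a and Ass1 were 0.56 and 0.74. Crip1, a LIM domain protein gene, was 2.29-fold lower, and the galectin gene Lgals3 2.39-fold lower, with 0.68 after removal of the clusters. Apoe, the lipid carrier, was at 655 CPM in members, 1143 CPM in the others and 7047 CPM in CD. Its median per barcode was 360 CPM in members, 423 CPM in the others and 2019 CPM in CD, and the highest other barcode reached 57519 CPM. Without the clusters led by other cell types its ratio was 0.78, short of the list threshold.

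Cell cycle RNA was lower in members, together with depth. The median share of UMIs from the S phase and the G2 and M phase lists was 0.253% in members, 0.479% in the others and 0.0826% in CD. Of 42 S phase genes 15 were lower in members and 0 higher, with a median of -0.55, beside 4.49% lower and 6.19% higher among all genes. For the G2 and M phase list 20 of 51 passed downwards and 0 upwards, at a median of -0.54. Hells, a chromatin remodeller of S phase, was at 13.5 against 31.9 CPM, and Pcna, the replication clamp, at 99.9 against 164 CPM. Hmgb2 was at 390 against 644 CPM and Pbk, a mitotic kinase gene, at 22.5 against 53.5 CPM. Mki67, the proliferation marker, was at 100.8 against 124 CPM (1.23-fold lower, 1.01 to 1.51) and had a UMI in 35 of 83 members.

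Matching on depth changed this difference. Within depth classes 10 S phase genes and 1 G2 and M phase gene were lower, with medians of -0.36 and -0.02, and Mki67 was 1.15-fold higher in the chosen barcodes. Within cycle classes, where the chosen barcodes match the rest in cycle RNA by construction, the G2 and M phase median was 0.10, and 6 S phase genes were lower. Members nevertheless carried cycle RNA well above CD: Mki67 was at 1.49 CPM and Top2a, the mitotic topoisomerase, at 2.31 CPM in CD, against 100.8 and 117 CPM in members.

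Some growth, cytoskeleton and cytokine genes were lower in members, and most were not separated. Over all genes 4.49% were lower and 6.19% higher under the main choice. Of 25 Myc and nucleolar growth genes 3 were lower in members, namely Mybbp1a, Nop58 and Nolc1, with a list median of -0.33. Of 28 actin, thymosin and motility genes 9 were lower, among them the intermediate filament gene Vim (282 against 480 CPM), the galectin gene Lgals1 (470 against 759 CPM) and Anxa2 (56.7 against 101 CPM). Removing the clusters led by other cell types left 4 of 27. Of 23 chemokine and cytokine genes 9 were lower, including Ccl2 (236 against 362 CPM), Tnf (48.6 against 74.4 CPM) and Il1b (30.6 against 56.6 CPM). Ccl3 was at 140 against 106 CPM, under the threshold. The chemokine list median was -0.41, and -0.14 within depth classes. With the score taken on thinned barcodes it was -0.06, with 2 higher and 4 lower.

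Several lists had few or no genes past the threshold between the Repop D5 sets, where 6.19% of all genes were higher and 4.49% lower. The type I interferon list had 1 of 26 higher (Xaf1) and 0 lower. Cholesterol synthesis had 0 of 23 in either direction, nuclear oxidative phosphorylation 1 of 64 lower, glycolysis 1 of 16 higher and the mitochondrially encoded genes 0 of 13. Heat shock genes had 3 of 13 lower, and 1 of 14 higher with 0 lower on thinned barcodes. Immediate early genes, which respond to dissociation as well as to stimuli in the brain, had 2 of 20 higher (Btg2 and Rhob) and 4 lower, and Junb was at 372 against 368 CPM. With the score taken on thinned barcodes this list had 4 higher and 0 lower, with a median of 0.36 in place of -0.07. The disease-associated microglia list had 4 of 24 higher (Ctsb, Trem2, Ctsd and Ctsl) and 3 lower (Lyz1, Lgals3 and Apoe), and 6 higher and 0 lower without the clusters led by other cell types. Of 21 genes of early and proliferative-region microglia 1 was higher and 8 lower, and 3 were lower without the clusters led by other cell types.

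**Figure D4:**
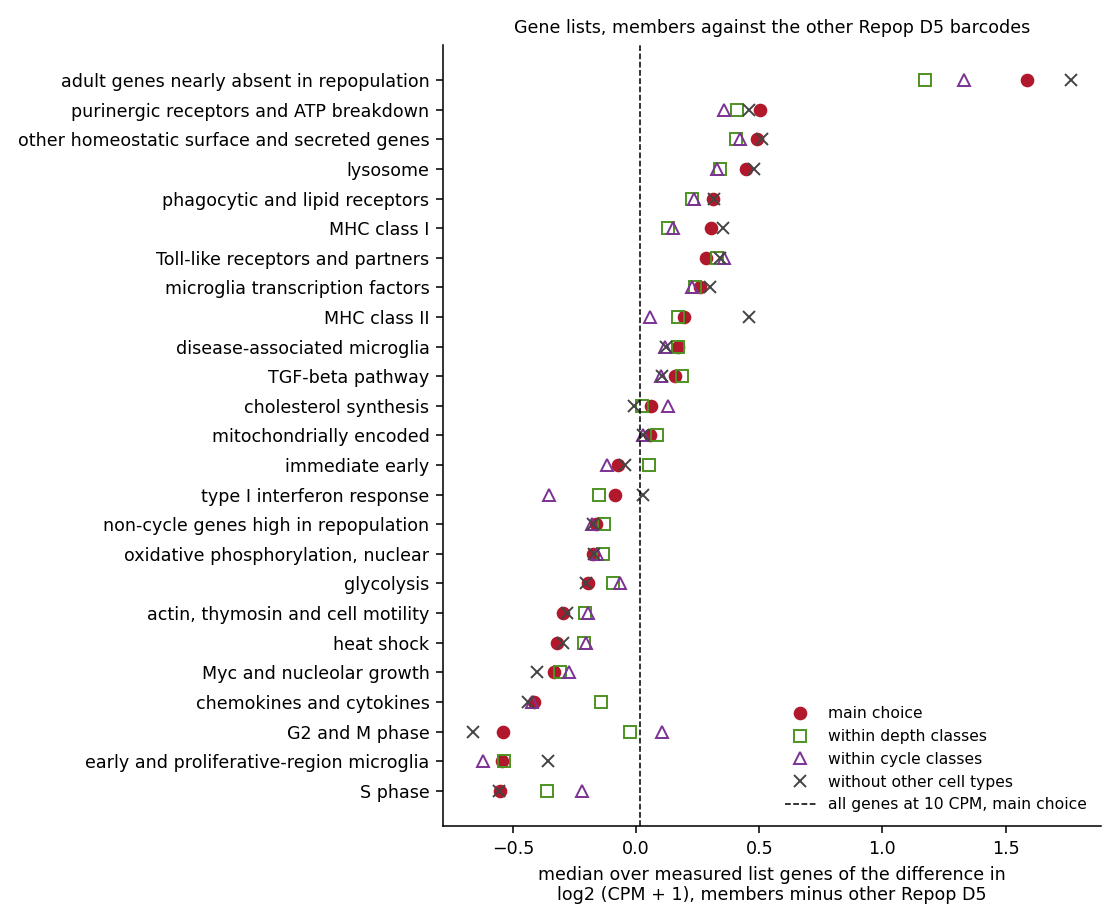
Median over each list's measured genes of the difference in log2(CPM + 1) between members and the other Repop D5 barcodes, for the main choice and for choices within depth classes, within cycle classes and without clusters of other cell types; the dashed line is the median of all genes (0.02). Homeostatic (0.49) and lysosome (0.45) lists lie to the right under each choice shown, while the G2 and M phase list moves from -0.54 to -0.02 within depth classes. The adult list (1.59) rests on 6 genes, 4 of them measured only through the members.

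The levels of these genes changed along the score below the members too. The remaining 470 barcodes were ranked by score into 5 bins of 94, and P2ry12 went from 1083 CPM in members through 635, 529, 421 and 305 to 208 CPM. Sparc ran 3055, 2186, 1799, 1417, 1059 and 638 CPM, and Ctsl ran 476, 324, 268, 216, 161 and 132 CPM. Cst3, Csf1r, Slc2a5, Nav2 and Pmp22 were also lower at each step. The summed lysosome list went from 44268 CPM in members to 24910 CPM in the lowest bin and the other homeostatic list from 61475 to 32737 CPM. P2ry12 is part of the score, so its order is set by the ranking. For Sparc the ratio of neighbouring sets was highest at the step to the lowest bin (1059 to 638 CPM), and it was 1.40 at the limit of the members. For Cst3 it was highest at that limit, with 11544 CPM in members and 8170 CPM in the next bin. In the lowest bin, 35 of 94 barcodes lay in clusters led by monocyte or neutrophil markers. Their part in the levels of that bin was not tested.

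Some genes had another shape. Serpine2 went from 71.1 CPM through 36.5, 23.2 and 9.88 to 5.06 and 5.76 CPM. Sall1 was at 75.6, 72.4 and 69.6 CPM in the first 3 sets and at 19.2 CPM in the lowest bin, and Cx3cr1 was at 1830, 1774 and 1720 CPM there before it declined to 733 CPM. Ctso stood at 55.8 CPM in members and between 24.1 and 30.4 CPM in every bin below. The 16 adult genes summed to 235, 144, 113, 63.1, 50.6 and 45.4 CPM. Myc and nucleolar genes were higher at each step, from 3391 to 4817 CPM, and S phase genes from 1437 CPM in members to 2535 and 2531 CPM in the lowest 2 bins. The median depth of the bins was 10354 UMIs in members and 13148.5 in the lowest bin, with 18016.5 to 21439 UMIs in between.

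**Figure D5:**
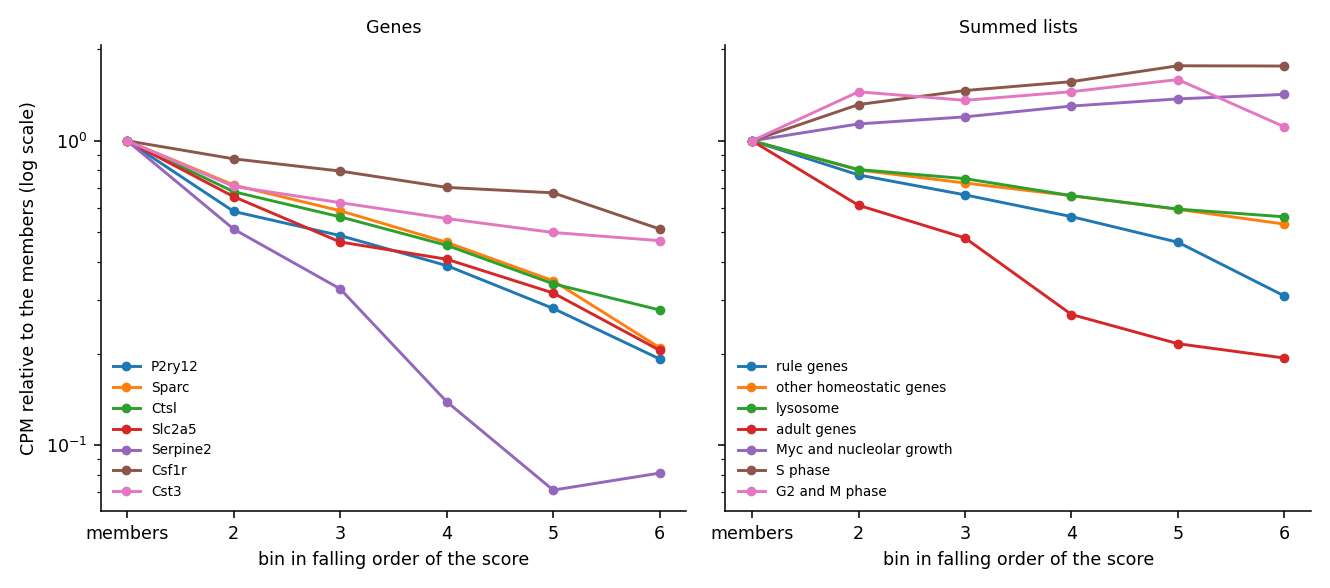
CPM relative to the members, on a log axis, in the members and in 5 bins of 94 other Repop D5 barcodes in falling order of the score, for 7 genes (left) and 7 summed lists (right). P2ry12 falls from 1083 to 208 CPM and Serpine2 from 71.1 to 5.76 CPM, whereas the Myc list rises from 3391 to 4817 CPM. In the lowest bin, 35 of the 94 barcodes lie in clusters led by monocyte or neutrophil markers.

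Against CD the members differed in many more genes. Of 3349 genes at 50 CPM, 312 (9.32%) were at least 2-fold higher in members and 557 (16.6%) at least 2-fold lower. This split depends on the scaling: trimmed-mean scaling shifts every log2 ratio by 0.26 and gives 552 higher and 321 lower, and totals without mt- and ribosomal protein genes shift it by 0.22 and give 547 and 405. The other Repop D5 barcodes, compared with the same CD barcodes, had 450 of 3431 genes (13.1%) higher and 805 (23.5%) lower. Both comparisons share the CD library.

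The genes highest in members over CD were those of division and of the repopulating state. Tk1, thymidine kinase of S phase, was at 51.3 against 0.495 CPM, Ccnb2, a mitotic cyclin, at 86.4 against 1.16 CPM, and Mki67 at 100.8 against 1.49 CPM. Outside the cycle, Htra3, a secreted protease, was at 202 CPM in members, 133 CPM in the others and 3.63 CPM in CD. Spp1, osteopontin, was at 117, 115 and 2.15 CPM, and Slc2a6, a lysosomal sugar transporter, at 140, 120 and 2.64 CPM. For Spp1 and Slc2a6 the intervals of the ratio between members and the others held 1 (0.842 to 1.22 and 0.980 to 1.38). Of 16 such genes that are high in repopulation, a list taken from earlier results of these libraries, 15 were higher in members than in CD and 1 lower, beside 13.4% higher and 31.6% lower among all 8396 genes. The list median over CD was 3.31 in members and 3.78 in the others. Between members and the other Repop D5 barcodes 1 of the 16 was higher (Htra3) and 4 lower, at a median of -0.16. As the list was drawn from these libraries, its direction against CD is no independent evidence. Spp1 had a UMI in 51 of 83 members and Slc2a6 in 55 of 83.

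Homeostatic lists stayed below CD in members. Of 40 other homeostatic genes 25 were lower than CD and 1 higher in members, with a median of -0.71, beside 13.4% higher and 31.6% lower among all 8396 genes. In the other Repop D5 barcodes 34 of the 40 were lower (median -1.13), beside 17.1% higher and 42.4% lower among all 8459 genes of that comparison. Microglia transcription factors had 18 of 23 lower in members (median -1.05) and 21 of 24 in the others (-1.29). For the TGF-beta list 11 of 20 were lower in members (-0.75) and 15 of 20 in the others (-0.76). The median over all genes was -0.33 in members and -0.39 in the others. Cst3 was 5.59-fold below CD in members, Apoe 10.8-fold and Sall1 3.95-fold, all from summed counts. Per barcode, the Apoe medians were 360 CPM in members and 2019 CPM in CD, where the highest barcode reached 139195 CPM.

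Of 39 lysosome genes 2 were higher in members than in CD and 7 lower, with a median of -0.27. Among all 8396 genes of that comparison 13.4% were higher and 31.6% lower, with a median of -0.33. In the other Repop D5 barcodes 3 of 40 lysosome genes were higher and 21 lower (-0.65), where 17.1% of all genes were higher and 42.4% lower. The difference between these counts was not tested. Immediate early genes were lower than CD in 20 of 22 (median -1.73). Nuclear oxidative phosphorylation genes were higher than CD in 47 of 64, cholesterol synthesis genes in 20 of 23 and glycolysis genes in 10 of 16. In the other Repop D5 barcodes 52, 21 and 10 genes of these lists were higher than CD.

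All 16 adult genes were lower in members than in CD, which the origin of the list in these same libraries makes likely. The median over CD was -3.89 in members and -4.74 in the others. Csmd3, a large transmembrane protein gene, had 0 counts in members and 71.5 CPM in CD, at least 26.5-fold lower with the floor of 3 counts over the set. Lag3, an inhibitory receptor, was at 8.10 CPM in members, 5.24 CPM in the others and 314 CPM in CD, and Crybb1 was 19.1-fold below CD. Tnfrsf17 had 2 counts in members and 57.1 CPM in CD, and Sult1a1 had 1 count and 65.9 CPM (73.2-fold lower, 13.1 to 2898). Other genes lowest against CD belong to border macrophages and neutrophils, which made 115 and 42 of the CD barcodes by cluster and none of the members: Mrc1 was at 4.50 against 184 CPM, Ccl24 had 2 counts against 62.6 CPM in CD, Ccl7 was at 12.6 against 313 CPM and Mmp8 had 2 counts against 53.2 CPM in CD. Without those clusters in either library, 318 genes were higher in members and 530 lower.

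Counted as barcodes with a UMI after thinning to 3000 UMIs, P2ry12 was found in 95.2% of members (79 of 83, exact interval 88.1% to 98.7%), 65.7% of the other Repop D5 barcodes and 97.0% of CD. P2ry12 is part of the choice, so the rule makes a higher share in members than in the other Repop D5 barcodes likely. P2ry12 was also found in 3 of 7 barcodes of the neutrophil-led cluster in Repop D5 and in 33 of 41 of those in CD, whose median depths were 5416 and 6386.5 UMIs. The part of free RNA in such shares was not tested. S100a8 was found in 59.0% of members and 58.7% of the others. Serpine2 was found in 16.9% of members (9.54% to 26.7%), 4.26% of the others (2.62% to 6.50%) and 73.8% of CD. Slc2a5 was found in 45.8%, 20.0% and 55.3%. Mki67 was found in 20.5% of members (12.4% to 30.8%) and 24.5% of the others (20.6% to 28.6%), and in 0.334% of CD. Unthinned, the shares for Serpine2 were 43.4%, 19.8% and 87.0%, and for Mki67 42.2%, 66.6% and 0.985%.

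Members varied among themselves. The highest score, 1.87%, belonged to a barcode of 6575 UMIs in cluster 9 with Cst3 at 26616 CPM and 7 UMIs of the 16 adult genes (1065 CPM). The next, 1.53%, had 9645 UMIs, lay in cluster 12 and had 19 UMIs of the adult genes (1970 CPM) and Cst3 at 21462 CPM. The third, at 1.29%, lay in cluster 4, led by replication genes, and had 8 such UMIs (665 CPM). The fourth and the fifth had 3 and 2. Across all members Cst3 ran from 3942 to 43167 CPM, with a median of 11772 CPM against 68568 CPM in CD. The share of cycle RNA ran from 0.112% to 1.60%, so that cells with high and with low cycle RNA were both among the members.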

How the data were processed

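Cell Ranger 2.1.0 and the genome mm10 are named in the submitters' processing notes. The annotation release, the rule for calling cells and the use of strand are not given in the sources used here. The matrices deposited by the authors give whole-number UMI counts, not normalized, for 27998 genes, 609 barcodes in CD and 585 in Repop D5. A pooled matrix by the authors served as an alternative. No sample column was left unused.

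Barcodes were filtered, scored and ranked as described (609 and 553 retained). Counts were summed over each set of barcodes and scaled to CPM of all UMIs. A ratio is the CPM of members over that of the other set, with the exact conditional binomial 95% interval of 2 Poisson counts. Genes at 50 CPM in either set with a ratio of 2 or its inverse, and list genes at 10 CPM with 1.5 or its inverse, were counted when the interval was clear of 1. List values are medians of log2((CPM + 1)/(CPM + 1)) without the 9 genes of the choice, and a symbol held by 2 identifiers counted once. These are size rules, and no test was run. Shares of barcodes with a UMI are medians of 20 seeded draws of 3000 UMIs with exact Clopper-Pearson intervals, and 10 CD barcodes were too shallow. The 14 clusters come from scanpy 1.11.5 and leidenalg 0.10.2 in Python 3.11.15 (2000 variable genes, 30 components, 15 neighbours, resolution 1), and a cluster was counted as another cell type when 3 or more of its 10 leading genes were that type's markers. Called doublets stayed in, except in 1 alternative. The ratio and calling steps were tested on simulated data.

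Named genes are the 15 highest and 15 lowest ratios against the other Repop D5 barcodes and the 10 each way against CD at 50 CPM with intervals that exclude 1, whether or not they reached 2-fold. Haemoglobin, sex-linked, mt-, ribosomal protein and predicted genes are not named. To these come examples from each list (the 2 highest, 2 lowest and 2 most abundant) and 20 genes always named, with 1 further gene of the rule not reported here; other genes that pass a list threshold were named after their values were seen. Coordinates are those of GENCODE M21 (GRCm38). The members, the 26 gene lists and the rules were chosen with earlier results of these data known. The alternatives were other cell filters, other shares of barcodes, equal weights, thinned or split UMIs, removal of other cell types or doublets, other scalings and minimums, the pooled matrix and the highest 15% of CD. Choices within depth classes and within cycle classes, and the removal of the 2 highest scores, were added after seeing the data.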

Additional observations from a re-analysis of the deposited data

How the results depend on the processing

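No paired analysis was possible because each group is 1 library. Leaving out a replicate was not possible for the same reason. Against the other Repop D5 barcodes, 13 genes were higher and 19 lower by the size rule. The counts became 34 and 39 with at least 1000 genes and under 5% mt- UMIs per barcode, 27 and 36 with the highest 10% as members, 6 and 11 with the score taken on thinned barcodes, and 21 and 31 with barcodes weighing alike. They were 109 and 143 for genes at 10 CPM and 202 and 195 with no minimum, where more genes could be counted. Totals without mt- and ribosomal protein genes gave 35 lower, and choices within depth classes and within cycle classes gave 4 and 5 higher. Against CD (312 higher, 557 lower), trimmed-mean scaling gave 552 and 321, totals without mt- and ribosomal protein genes 547 higher, genes at 10 CPM 640 and 1676, and no minimum 884 and 2014. Except where more genes were counted, the cause was not tested.

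Some values changed direction. For members over the other Repop D5 barcodes, the MHC class II median was -0.40 and the Ltf ratio 0.336 with the stricter cell filter, and the MHC class II median was -0.29 for list genes at 50 CPM. Ccl5 was at 1.34 with the highest 20% as members and 2.68 with equal weights of the 9 genes, where Cd74 was at 1.02. With the score on thinned barcodes F13a1 was at 1.15, Mrc1 at 2.12, Nr4a1 at 1.23 and mt-Atp6 at 1.07, and with split UMIs Ccl3 was at 0.783. Without other cell types Cd74 was at 1.34, F13a1 at 1.75, H2-Aa at 1.33, H2-Eb1 at 1.30 and Ngp at 1.24. Within depth classes Ccl5 and Dlgap5 were at 1.196, Ltf at 0.400, Mki67 at 1.15, Nr4a1 at 1.05, Top2a at 1.01 and mt-Atp6 at 1.01. Within cycle classes the G2 and M phase median was 0.10, and Mki67 was at 1.22, Nes at 1.00 and Top2a at 1.13.

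For members over CD, Siglech was at 1.09 with the highest 10%, at 1.11 under trimmed-mean scaling, at 1.07 with totals without mt- and ribosomal protein genes and at 1.01 with barcodes weighing alike. The disease-associated microglia median was 0.16 without other cell types, 0.0254 with totals without mt- and ribosomal protein genes and 0.30 against the highest 15% of CD. Lgals3 was at 1.69 without other cell types. Against the highest 15% of CD, the median of the early and proliferative-region list was 0.27, Ccr2 was at 2.27 and Lgals3 at 2.24.

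Of the list medians against the other Repop D5 barcodes under alternatives, 398 stayed within the counting error of the reported median and 74 moved. A change of direction was counted only for medians larger than that error (3), and smaller medians also changed sign, such as immediate early genes (0.36 on thinned barcodes), cholesterol synthesis (-0.13 there) and interferon genes (0.03 without other cell types). Of the ratios of genes held out of the choice, 26 stayed within the counting interval, 19 moved and 0 changed direction. Csmd3 against CD has no value with barcodes weighing alike. The choice made within depth classes, with 60 shared members, was added after seeing the data.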
